A study of Mus musculus with 4 samples.

Results

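Oxidative phosphorylation subunits are the nuclear-encoded proteins that build the 4 respiratory complexes and the ATP synthase of the inner mitochondrial membrane. They were taken as all array features whose single gene symbol begins with Ndufa, Ndufb, Ndufc, Ndufs, Ndufv, Uqcr, Cox4i, Cox5, Cox6, Cox7, Cox8 or Atp5, or is Sdha, Sdhb, Sdhc, Sdhd or Cyc1, without assembly factors named Ndufaf and without pseudogenes. This gave 118 features of 84 genes, out of 45220 features and 19087 genes with a symbol, and all 84 genes could be tested among 18833. Complex I contributed 36 genes, complex II 4, complex III 9, complex IV 18 and complex V, the ATP synthase, 17. The rule used no measured value, but it was set with earlier results of these data known.

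RNA came from the globus pallidus, a nucleus of inhibitory neurons in the basal ganglia, of male C57BL6 mice trained in conditioned place preference, where animals learn to favour the compartment in which they received a drug. Mice of the first group received cocaine at 15 mg/kg on days 2, 3 and 4 of the protocol and had a high preference score, and mice of the second group received saline on the same days. Each of 4 Agilent whole mouse genome arrays with 2 dye channels held 1 cocaine mouse against 1 saline mouse, so that 8 mice formed 4 independent pairs. Cocaine RNA carried Cy5 in pairs 1 and 3 and Cy3 in pairs 2 and 4. Because only mice with a high score entered the cocaine group, exposure and preference cannot be told apart.

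Complexes I and II pass electrons from NADH and from succinate to ubiquinone, complex III passes them on to cytochrome c, and complex IV reduces oxygen. Complexes I, III and IV pump protons, and the ATP synthase lets the protons flow back to make ATP. Complexes I, III, IV and V also hold subunits encoded in mitochondrial DNA, so that both genomes supply each of them. Neurons of the globus pallidus fire at high rates without input and depend heavily on this pathway.

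A value below is a log2 ratio within 1 array, normalized for the dye trend with signal, and a change is the treatment coefficient of a limma fit over the 4 pairs with a term for the dye, given ± its moderated standard error (SE). The deposited ratios are read as cocaine over saline. This direction is likely, because the study's design names cocaine first, but the numerator is not stated in the sources used here. If it is saline, the sign of each ratio, change and dye effect turns, and Cy5 and Cy3 change places in what is said of the dye. The deposited column medians were 0.42, -0.58, 0.41 and -0.43 in pairs 1 to 4. After normalization, all 18833 genes still correlated at 0.45 and 0.46 between pairs of the same dye orientation and at -0.64 to -0.32 between pairs of opposite orientation, across genes, which are not independent replicates. For the 84 members these correlations were 0.26 and 0.34, and -0.68 to -0.18. In tissue samples, fewer cells of a type and less RNA per cell cannot be told apart. The 9 markers of pallidal and GABA neurons (such as Pvalb and Gad1) had signals of 114 to 69162 scanner units, while the 8 markers of cortical and thalamic neurons had a median of 86.5, near the lowest signals on the arrays (55.2).

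For none of the subunits did the test call a difference between cocaine and saline. Of the 84 genes, 0 passed an adjusted p of 0.05 (limma, Benjamini-Hochberg over all genes), against 0.0% of all genes, with no member below 0.962. With no adjustment, 0 members passed a threshold of 0.05, against 2.58% of all genes (485 of 18833). That count depends on single pairs: without pair 4, 13 members below 0 and 3 above passed, as did 12.8% of all genes. Without pair 3 it was 3 (Atp5mpl, Ndufa10 and Uqcrc2, all below 0), against 5.35% of all genes. Without pair 2 it was 1 (Ndufs3, below 0), against 2.19%. Changes ran from -0.25 for Ndufa10 to 0.16 for Ndufa4, and their median size of 0.065 was close to the median SE of 0.068. The 95% confidence intervals of 81 members lay within a log2 change of ± 0.50, which is 41.4% up or 29.3% down, and those of 51 lay within ± 0.25. The ratios of pairs 1 and 3 have the form of signals without background subtraction, which would understate changes of dim genes. These bounds hold for the ratios as measured.

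Changes of 58 members lay below 0 and of 26 above, with a median of -0.039, under the loess normalization; with the ratios as deposited, 84 lay below 0. Over all genes 53.6% lay below 0, with a median of -0.0069. Among the 2514 genes with a signal over 1000 scanner units, which hold 69 of the members, 56.0% lay below 0, with a median of -0.014. The members' medians were -0.021, -0.13, 0.084 and -0.034 in pairs 1 to 4, so pair 2 was lowest and pair 3 was above 0. In pairs 1 and 3, with cocaine in Cy5, the mean ratio of 40 members lay below 0 and the median was 0.013. In pairs 2 and 4, with cocaine in Cy3, 61 lay below 0 and the median was -0.098. The mean ratio lay below 0 in both orientations for 26 members and above 0 in both for 9. Without pair 2 the median over the members was -0.0065, with 47 below 0, which moved the median by over 1.5 times, as did leaving out pair 1 (-0.023) or pair 3 (-0.066).

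**Figure D1:**
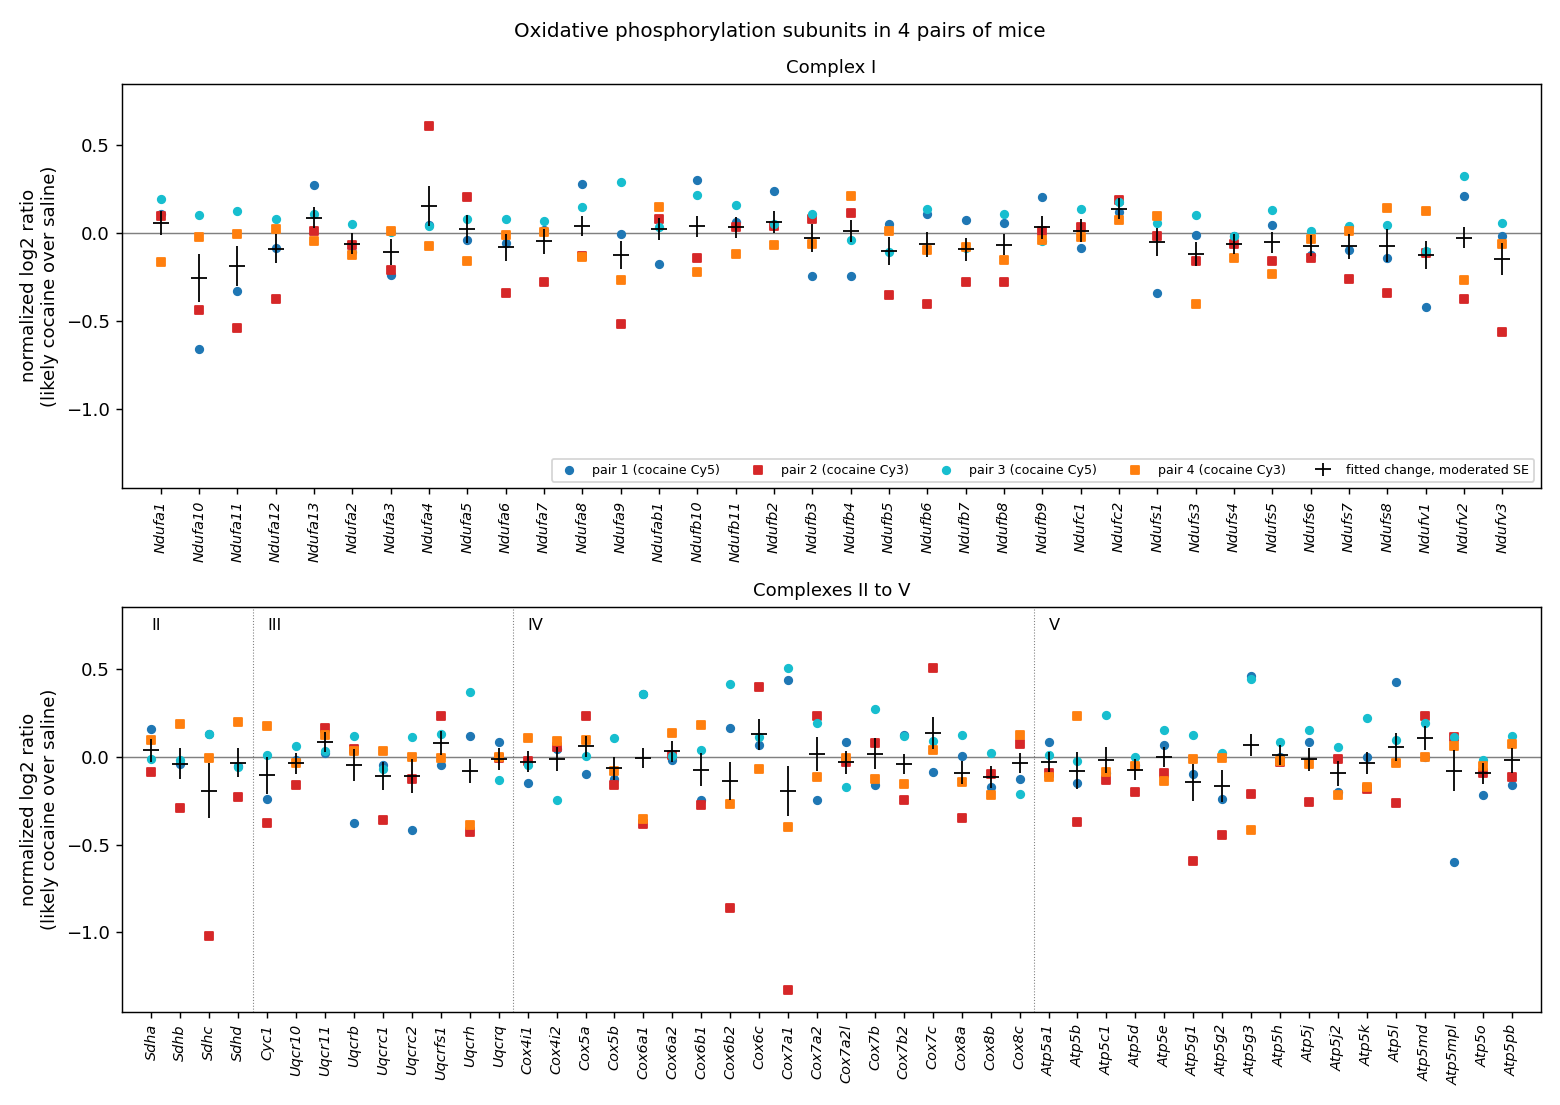
Normalized log2 ratio (vertical axis, likely cocaine over saline) of each of the 84 subunits (horizontal axis) in pair 1 to pair 4, with circles for cocaine in Cy5 and squares for cocaine in Cy3. The black mark is the fitted change with its SE. For most genes the pairs lie on both sides of 0, and the lowest points are pair 2 values of -1.33 for Cox7a1 and -1.02 for Sdhc.

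Only 5 members had the same sign in all 4 pairs. Above 0 in every pair were 2 members, against 3.11% of all genes, and below 0 in every pair were 3, against 3.8%. The shares of members and of all genes with 1 sign in every pair were 5.95% and 6.91%. Promoters of the 5 are printed here, since they are the members whose gene ratio had 1 sign in every pair. For Ndufs4 this holds only for the mean of its 2 features, not for either feature. Each runs from 250 bases before to 50 bases after the start of the gene in RefSeq (GRCm38.p6), 5′ to 3′ on the gene's strand, with capitals marking matches on either strand to CCGGAAG (a motif of ETS factors such as GABP), GCGCATG (part of the NRF1 motif) or AAGATGG (part of the YY1 motif).
Ndufc2 (chr7:97399753-97400052, plus strand): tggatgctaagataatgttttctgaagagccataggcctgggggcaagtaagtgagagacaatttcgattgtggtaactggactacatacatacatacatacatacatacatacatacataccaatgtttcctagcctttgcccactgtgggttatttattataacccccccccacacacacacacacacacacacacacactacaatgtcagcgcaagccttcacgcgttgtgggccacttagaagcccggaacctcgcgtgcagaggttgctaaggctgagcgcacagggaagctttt
Uqcr11 (chr10:80406772-80407071, minus strand): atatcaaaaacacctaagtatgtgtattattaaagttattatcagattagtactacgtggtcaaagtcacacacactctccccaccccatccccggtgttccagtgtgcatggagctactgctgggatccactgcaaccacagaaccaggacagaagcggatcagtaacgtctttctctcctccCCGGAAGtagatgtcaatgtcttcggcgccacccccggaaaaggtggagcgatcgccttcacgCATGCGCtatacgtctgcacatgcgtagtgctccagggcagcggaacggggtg
Ndufs4 (chr13:114388045-114388344, minus strand): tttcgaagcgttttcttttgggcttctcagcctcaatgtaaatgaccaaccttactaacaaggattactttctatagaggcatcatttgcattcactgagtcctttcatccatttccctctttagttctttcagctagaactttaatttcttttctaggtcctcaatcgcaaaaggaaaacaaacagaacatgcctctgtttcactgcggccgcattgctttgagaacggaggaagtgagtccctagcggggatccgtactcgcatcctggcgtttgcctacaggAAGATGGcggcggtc
Atp5o (chr16:91931581-91931880, minus strand): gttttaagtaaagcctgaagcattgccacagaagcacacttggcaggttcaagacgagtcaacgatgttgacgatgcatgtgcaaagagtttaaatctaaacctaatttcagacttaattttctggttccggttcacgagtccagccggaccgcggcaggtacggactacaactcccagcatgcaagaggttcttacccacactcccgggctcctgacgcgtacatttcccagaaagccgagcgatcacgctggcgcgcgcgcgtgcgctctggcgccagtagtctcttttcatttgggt
Atp5d (chr10:80142025-80142324, plus strand, the first of 2 listed starts): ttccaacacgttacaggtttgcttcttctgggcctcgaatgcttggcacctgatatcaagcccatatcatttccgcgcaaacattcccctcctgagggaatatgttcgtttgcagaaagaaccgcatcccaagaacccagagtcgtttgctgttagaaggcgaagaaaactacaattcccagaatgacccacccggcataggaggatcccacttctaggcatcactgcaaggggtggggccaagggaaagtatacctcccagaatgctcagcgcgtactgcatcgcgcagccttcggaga

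GABP, NRF1 and YY1 are known as regulators of many genes of the respiratory chain. Of the 84 members, 69 matched a RefSeq promoter. CCGGAAG or its reverse complement was in 16 of the 69 (23.2%), against 9.12% of 27025 promoters of the same length. GCGCATG was in 13 (18.8%), against 4.04%, and AAGATGG in 10 (14.5%), against 6.48%. The start site of Uqcr11 has the ETS letters 66 bases upstream and the reverse complement of the NRF1 letters spanning the site, with no base shared between them, and Ndufs4 has the YY1 letters 35 bases downstream. None of the 3 letter strings is in the printed windows of Ndufc2, Atp5o and Atp5d. A match is a description of the letters, not of a bound site.

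Complex I, which holds a matrix arm that oxidises NADH and a membrane arm that pumps protons, had 23 members below 0 and 13 above, with a median change of -0.057 and pair medians of -0.015, -0.14, 0.082 and -0.052. Ndufc2, an accessory subunit of the membrane arm, gave ratios of 0.12, 0.19, 0.18 and 0.073 in pairs 1 to 4, above 0 in each. Its change was 0.14 ± 0.058 (SE), with a 95% interval of -0.0019 to 0.28 and the smallest unadjusted p of the members (0.0523, adjusted 0.962). It passed an unadjusted p of 0.05 with a loess span of 0.5, with arrays scaled to 1 spread and with local medians subtracted, though not after adjustment. Its change lay below 0 with the ratios as deposited (-0.16) and with each array centred on its median (-0.085). Ndufs4, an accessory subunit of the matrix arm whose loss in mice is a model of Leigh syndrome, had a change of -0.060 ± 0.056 (SE). Its ratios of -0.018, -0.062, -0.019 and -0.14 were all below 0, and all but pair 4 within 0.10 of it. They are means of 2 features. The brighter feature (3846 scanner units) gave 0.064, -0.19, 0.14 and -0.27, split by the dye. The other had a signal of 59.7, near the lowest on the arrays.

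The 6 core subunits of the matrix arm that were measured carry the flavin and the iron-sulphur clusters or hold them in place. All 6 had changes between -0.13 and -0.027, while 53.6% of all genes lay below 0, and 0 passed the test. Their pair medians of -0.12, -0.21, 0.052 and 0.057 show that only pairs 1 and 2 were below 0, while pairs 3 and 4 were above. The shared sign of the changes depended on single pairs. Without pair 1, Ndufs1 (0.049) and Ndufv2 (0.0017) lay above 0. Without pair 2, Ndufs8 (0.049) and Ndufv2 (0.00095) did. Ndufv1, which binds NADH and the flavin, gave -0.42, -0.11, -0.10 and 0.13 and a change of -0.13 ± 0.079 (SE), with pair 4 on the other side of 0. Ndufs3, in the part that leads to ubiquinone, gave -0.013, -0.16, 0.10 and -0.40 and a change of -0.12 ± 0.068 (SE), with pair 4 far below the rest. Without pair 4 the change was -0.056. The iron-sulphur subunit Ndufs1 gave -0.34, -0.016, 0.056 and 0.10, with a change of -0.051 ± 0.081 (SE). The iron-sulphur subunits nearest to the quinone site gave similar values, with a change of -0.076 ± 0.070 (SE) for Ndufs7 and of -0.072 ± 0.092 (SE) for Ndufs8. Ndufv2, which holds an iron-sulphur cluster beside Ndufv1, gave 0.21, -0.38, 0.33 and -0.27, alternating with the dye, and its change was -0.027 ± 0.060 (SE). These ratios of Ndufv2 are means of 2 features. The brighter feature (721 scanner units) gave 0.22, -0.80, 0.28 and -0.0089. The other, with a signal of 77.7, gave 0.20, 0.050, 0.37 and -0.52.

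Among the 30 accessory subunits of complex I, 17 lay below 0 and 13 above. Ndufa10, an accessory subunit on the matrix side, had the lowest change of all members at -0.25 ± 0.14 (SE), from ratios of -0.66, -0.44, 0.10 and -0.022. Pairs 1 and 2 carry this value and pair 3 lies above 0, and its unadjusted p was 0.11. Ndufa4, first assigned to complex I and since then to complex IV, had the highest change at 0.16 ± 0.11 (SE), from ratios of 0.046, 0.61, 0.040 and -0.075. Here pair 2 stands alone, and without it the change was -0.016. Ndufb4, of the membrane arm, gave -0.24, 0.12, -0.039 and 0.21, again split by the dye, with a change of 0.011 ± 0.064 (SE). After Ndufa10 the lowest values were those of Ndufa11, of the membrane arm, with -0.33, -0.54, 0.12 and -0.0028 and a change of -0.19 ± 0.11 (SE), and of Ndufv3, of the matrix arm, with -0.017, -0.56, 0.056 and -0.064 and -0.15 ± 0.091 (SE). Both were far below 0 in pair 2. Ndufab1, the mitochondrial acyl carrier protein, gave -0.17, 0.082, 0.036 and 0.15 and a change of 0.023 ± 0.064 (SE). The accessory subunits not given by name here lay between -0.12 (Ndufa9) and 0.087 (Ndufa13).

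Complex II, or succinate dehydrogenase, also belongs to the citric acid cycle and is wholly nuclear-encoded. Its 4 members had pair medians of 0.043, -0.26, -0.016 and 0.14, low in pair 2 and high in pair 4. The flavoprotein Sdha gave 0.16, -0.090, -0.014 and 0.094 and a change of 0.037 ± 0.066 (SE), the single member of the complex above 0. The iron-sulphur subunit Sdhb gave -0.041, -0.29, -0.018 and 0.19 and a change of -0.041 ± 0.088 (SE). Both membrane anchors lay lowest in pair 2. Sdhc gave 0.13, -1.02, 0.13 and -0.0072 and a change of -0.19 ± 0.16 (SE), and without pair 2 its change was 0.060. Sdhd gave -0.055, -0.23, -0.058 and 0.20 and a change of -0.035 ± 0.082 (SE).

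Complex III had 7 members below 0 and 2 above, with a median of -0.046 and pair medians of -0.050, -0.12, 0.063 and -0.0030. Uqcr11, a small subunit, gave 0.022, 0.16, 0.030 and 0.12, all above 0 though 2 pairs lay near it, and its change of 0.084 ± 0.055 (SE) was the highest of the complex. Uqcrfs1, the Rieske iron-sulphur protein, gave -0.050, 0.23, 0.13 and -0.0064 and a change of 0.076 ± 0.070 (SE). These are the members above 0. Cytochrome c1 (Cyc1) gave -0.24, -0.38, 0.012 and 0.18, with pairs 1 and 2 low and pair 4 high, and a change of -0.11 ± 0.10 (SE). The core proteins Uqcrc1 and Uqcrc2, which face the matrix, differed in the pair that carried them: Uqcrc1 gave -0.050, -0.36, -0.068 and 0.035 and a change of -0.11 ± 0.079 (SE). Uqcrc2 gave -0.42, -0.12, 0.11 and -0.0048 and a change of -0.11 ± 0.095 (SE), with pair 1 far below the rest. Uqcrh, the hinge protein that docks cytochrome c, gave 0.12, -0.43, 0.37 and -0.39 and a change of -0.082 ± 0.066 (SE). The remaining small subunits had changes of -0.046 ± 0.090 (SE) for Uqcrb, -0.039 ± 0.059 (SE) for Uqcr10 and -0.015 ± 0.063 (SE) for Uqcrq.

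Complex IV had 12 members below 0 and 6 above, with a median of -0.031 and pair medians of -0.056, -0.028, 0.095 and -0.074. The catalytic core of this complex is encoded in mitochondrial DNA, and the nuclear subunits surround it. Cox4i1 gave -0.15, -0.027, -0.048 and 0.10 and a change of -0.030 ± 0.060 (SE), and Cox5a a change of 0.059 ± 0.060 (SE). Cox5b gave -0.13, -0.16, 0.10 and -0.080 and a change of -0.066 ± 0.065 (SE), with pair 3 above 0. Among the small subunits, Cox7c gave -0.089, 0.51, 0.087 and 0.036 and Cox6c 0.069, 0.39, 0.11 and -0.068, both highest in pair 2. Their changes were 0.14 ± 0.091 (SE) and 0.13 ± 0.086 (SE), the highest of the complex. Without pair 2 they were 0.018 and 0.011.

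Several complex IV subunits exist as isoforms that differ between tissues. The isoforms found in most tissues had changes of -0.0076 ± 0.055 (SE) for Cox6a1, -0.075 ± 0.094 (SE) for Cox6b1, 0.014 ± 0.097 (SE) for Cox7a2, 0.016 ± 0.088 (SE) for Cox7b and -0.091 ± 0.065 (SE) for Cox8a. Cox7a2l had a change of -0.032 ± 0.066 (SE). Isoforms known from other tissues were mostly dim. Signals were 77.4 scanner units for Cox4i2, the lung isoform, 76.4, 64.7 and 124 for the testis isoforms Cox7b2, Cox8c and Cox6b2, and 71.1 and 143 for the muscle isoforms Cox8b and Cox7a1. Of all genes 38.0% had signals under 100, as had 4 of these isoforms, so their ratios say little about a change. Cox6a2, known as a muscle isoform and also from parvalbumin neurons of the mouse brain, had a signal of 873 and ratios of -0.022, 0.0076, 0.0017 and 0.13, with a change of 0.030 ± 0.058 (SE). Cox7a1 had the lowest change of the complex at -0.20 ± 0.14 (SE), from ratios of 0.43, -1.33, 0.51 and -0.40 that were above 0 with cocaine in Cy5 and below 0 with cocaine in Cy3. Cox6b2 followed the same order with 0.17, -0.86, 0.41 and -0.27 and a change of -0.14 ± 0.11 (SE). The remaining dim isoforms had changes of -0.015 ± 0.069 (SE) for Cox4i2, -0.040 ± 0.057 (SE) for Cox7b2, -0.12 ± 0.064 (SE) for Cox8b and -0.037 ± 0.057 (SE) for Cox8c.

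Complex V had 13 members below 0 and 4 above, with a median of -0.030 and pair medians of -0.047, -0.13, 0.11 and -0.041. The 5 genes of the F1 head and its central stalk all had changes below 0, between -0.080 for the catalytic β subunit Atp5b and -0.0041 for the ε subunit Atp5e, and 0 passed the test. This shared sign depended on the processing. With only the brightest feature of each gene, Atp5a1 (0.040) and Atp5b (0.023) lay above 0. With a loess span of 0.5, Atp5c1 (0.0046) and Atp5e (0.015) did. Atp5d, the δ subunit of the central stalk, gave -0.047, -0.20, -0.00015 and -0.051, with pair 3 at 0 within rounding, and a change of -0.074 ± 0.059 (SE). The α subunit Atp5a1 gave 0.086, -0.094, 0.0069 and -0.12 and a change of -0.030 ± 0.056 (SE). The γ subunit Atp5c1, which turns inside the head, gave -0.096, -0.13, 0.24 and -0.089, with pair 3 alone above 0, and a change of -0.020 ± 0.073 (SE).

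In the peripheral stalk, which holds the head still, 3 of 4 genes lay below 0. Atp5o, the subunit that joins the stalk to the head, gave -0.22, -0.093, -0.021 and -0.054, below 0 in every pair, and a change of -0.096 ± 0.062 (SE), with an unadjusted p of 0.172. The c-ring that protons turn is made from 3 genes with the same mature protein. Atp5g2 gave -0.24, -0.45, 0.022 and -0.0067 and a change of -0.17 ± 0.092 (SE), the lowest of the complex. Atp5g1 gave -0.10, -0.60, 0.12 and -0.015 and a change of -0.15 ± 0.10 (SE). Both were carried by pairs 1 and 2, and without pair 2 they were -0.059 and -0.0017. Atp5g3 gave 0.46, -0.21, 0.44 and -0.42 and a change of 0.068 ± 0.063 (SE). Atp5md, a small subunit at the dimer interface, had the highest change of the complex at 0.10 ± 0.070 (SE), from -0.0015, 0.23, 0.19 and -0.00059. The b subunit of the stalk, Atp5pb, had a change of -0.022 ± 0.073 (SE), its partners Atp5h (subunit d) and Atp5j (subunit F6) of 0.0078 ± 0.056 (SE) and -0.016 ± 0.064 (SE), and the small membrane subunits Atp5k, Atp5j2, Atp5l and Atp5mpl of -0.036 ± 0.064 (SE), -0.095 ± 0.072 (SE), 0.054 ± 0.080 (SE) and -0.080 ± 0.12 (SE).

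**Figure D2:**
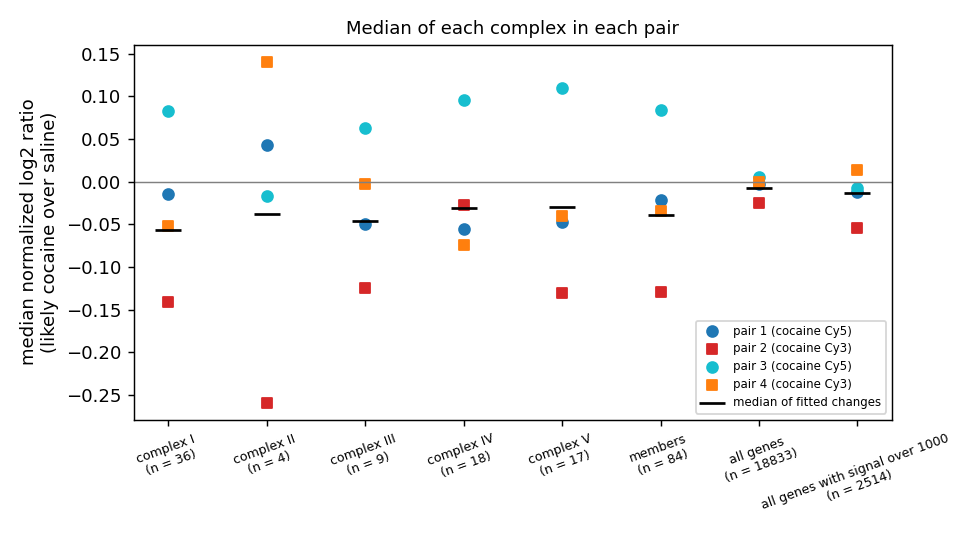
Median normalized log2 ratio (vertical axis, likely cocaine over saline) of each complex, of all members, of all genes and of all genes with a signal over 1000 in each pair, with the median of the fitted changes as a bar. The members' pair medians run from -0.13 in pair 2 to 0.084 in pair 3, while those of all genes run from -0.025 to 0.0056.

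The dye effect, which is the part of a ratio that stays with Cy5 whatever the treatment, was larger in size than the treatment change for 49 of 84 members (58.3%), against 65.0% of all genes. With a signal over 1000, it was larger for 39 of 69 members (56.5%), against 56.2% of all 2514 such genes. The dye effect passed an adjusted p of 0.05 for 4 members with the higher signal in Cy5, against 3.51% of all genes, and for 0 with the higher signal in Cy3, against 2.69%. With a signal over 1000, it passed toward Cy5 for 3 of 69 members, against 19 of 2514 genes. Toward Cy3 the counts were 0 and 7. The 4 members were Atp5g3 at 0.38 ± 0.063 (SE) (adjusted p 0.0258), Cox6a1 at 0.36 ± 0.055 (SE) (0.0215), Uqcrh at 0.33 ± 0.066 (SE) (0.0442) and Ndufv2, a mean of 2 features that differ, at 0.30 ± 0.060 (SE) (0.0445). These calls depend on single pairs and on the features used: the number was 0 without pair 1 or without pair 3, 2 without pair 2, 5 without pair 4 and 1 with only the features above the median signal. For Cox6a1 the ratios were 0.35, -0.38, 0.36 and -0.36: its mean change was near 0 because the orientations cancel. The effects toward Cy3 with the smallest p were -0.15 ± 0.064 (SE) for Ndufb4, -0.14 ± 0.057 (SE) for Cox8c and -0.11 ± 0.060 (SE) for Cox5a, and these did not pass. Cox7a1 had a dye effect of 0.67 ± 0.14 (SE) with an adjusted p of 0.0539.

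**Figure D3:**
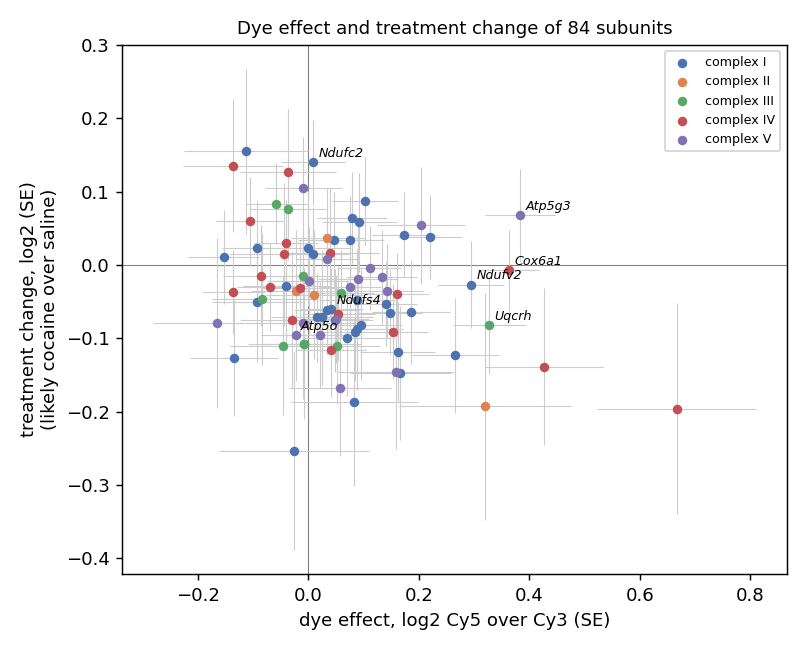
Treatment change (vertical axis, log2, likely cocaine over saline) against dye effect (horizontal axis, log2 Cy5 over Cy3) of the 84 subunits, coloured by complex, with SE bars in both directions. Dye effects run from -0.17 for Atp5mpl at the left to 0.67 for Cox7a1 at the right, a wider range than that of the changes.

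The share of members below 0 depended on the normalization. As deposited, all 84 members had a mean ratio below 0 with a median of -0.31, but so had 98.9% of the genes with a signal over 1000, whose median was -0.28, and 80.9% of all genes, whose median was -0.085. With each array centred on its median, 81 members lay below 0 with a median of -0.24, and the genes over 1000 had a median of -0.21. The deposited medians of the members were 1.13, -2.47, 1.37 and -1.30 in pairs 1 to 4, following the dye in each. These subunits are bright as a class: 82.1% had signals over 1000 scanner units, against 13.3% of all genes.

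**Figure D4:**
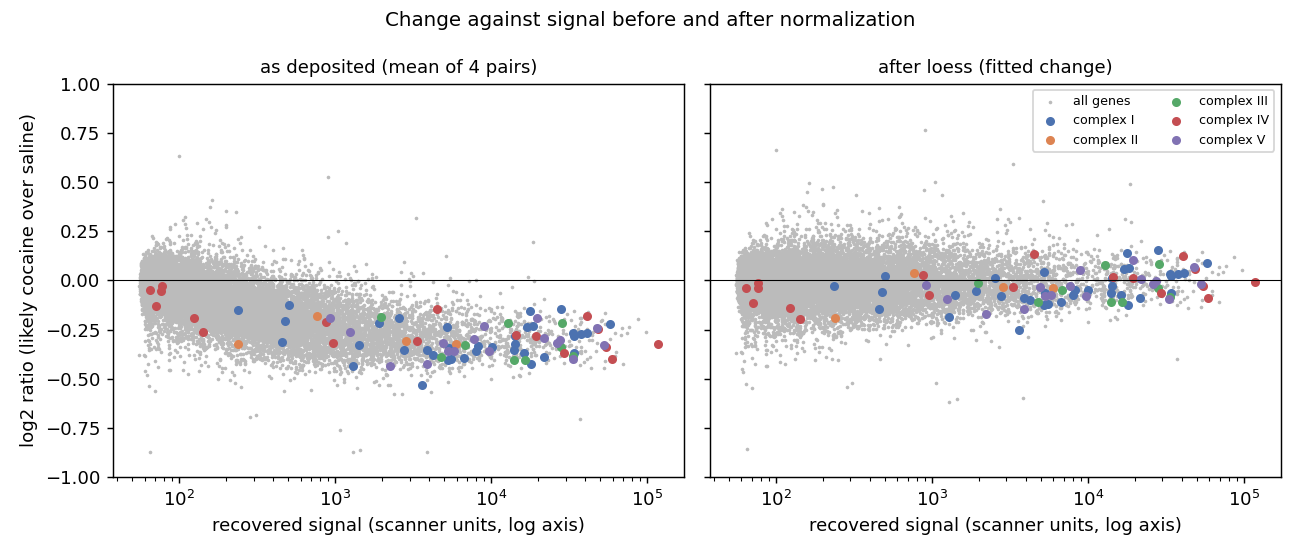
Mean deposited log2 ratio (left) and fitted change after loess (right) against recovered signal in scanner units (log axis) for all genes (grey) and the subunits of each complex (colours). At left, bright genes of every kind lie below 0, with medians of -0.31 for the members and -0.28 for genes over 1000. At right, the medians are -0.039 and -0.014.

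Several features measured the same gene for 23 members (57 features), and for 11 of them the features disagreed in sign. The features differed most for Ndufs5, an accessory subunit of complex I. Its dim feature, with a signal of 80.8 scanner units, gave -0.15, and its bright feature, with 45714, gave 0.047. The mean over both gave the change of -0.053 ± 0.057 (SE). For Atp5pb, the b subunit of the peripheral stalk, 4 features ran from -0.11 (signal 27099) to 0.065 (signal 156). All 3 features of Atp5b carry the same RefSeq accession, yet the brightest gave 0.26, -0.20, 0.35 and -0.32 in pairs 1 to 4, split by the dye, and the others gave -0.36, -0.39, -0.19 and 0.50, and -0.35, -0.52, -0.24 and 0.51. The mean over these features gave the change of -0.080 ± 0.10 (SE) for Atp5b.

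Genes that work with the subunits gave 0 calls after adjustment, and few at an unadjusted p under 0.05. Of the 13 assembly factors of complex I, 7 lay below 0 and 0 passed that unadjusted threshold, with Ndufaf3 at -0.21 ± 0.091 (SE) and Timmdc1 at 0.17 ± 0.076 (SE). Assembly factors of complexes II, III and V had 8 of 13 below 0, with Sdhaf1 at -0.30 ± 0.16 (SE) and Uqcc3 at -0.099 ± 0.073 (SE). Those of complex IV had 12 of 19 below 0, with Surf1 at -0.24 ± 0.11 (SE) and Coa7 at -0.17 ± 0.083 (SE). None of these lists had a member at an unadjusted p under 0.05, and their medians were -0.035, -0.033 and -0.010.

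Mitochondrial ribosomal proteins, which translate the subunits encoded in mitochondrial DNA, lay below 0 for 57 of 78 genes with a median of -0.029. Mrpl2 at -0.29 ± 0.098 (SE) was the 1 gene of this list at an unadjusted p under 0.05, and Mrps34 had -0.11 ± 0.057 (SE). Their pair medians of -0.0078, -0.16, 0.053 and -0.0037 were lowest in pair 2, as were those of the subunits. Regulators of mitochondrial biogenesis had 5 of 15 genes below 0 and a median of 0.016, but 13 of 15 and -0.11 with the ratios as deposited. The polymerase subunit Polg2 at -0.20 ± 0.075 (SE) was the 1 gene of that list past the unadjusted threshold, and the RNA polymerase Polrmt had -0.11 ± 0.075 (SE). The 2 listed subunits from mitochondrial DNA, COX2 and ND4L, gave -0.30, 0.37, 0.28 and -0.048 and -0.27, -0.14, 0.71 and -0.089, with changes of 0.075 ± 0.12 (SE) and 0.053 ± 0.15 (SE) and no common direction over the pairs. Both changes lay below 0 with the ratios as deposited (median -0.24).

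Citric acid cycle enzymes had 8 of 12 genes below 0 with a median of -0.055, including Idh3g at -0.11 ± 0.085 (SE) and Idh3a at 0.13 ± 0.11 (SE). Cytochrome c and the inner membrane carriers had 4 of 10 below 0 with a median of 0.015, but 10 of 10 and -0.22 as deposited, including Slc25a22 at -0.11 ± 0.10 (SE) and Slc25a3 at 0.071 ± 0.073 (SE). Glycolysis, which feeds the mitochondria with pyruvate, had 12 of 14 genes below 0 with a median of -0.089, including Pfkl at -0.15 ± 0.085 (SE) and Pgk1 at -0.12 ± 0.080 (SE). Its pair medians were -0.14, -0.18, 0.050 and 0.013, so pairs 1 and 2 were low and pairs 3 and 4 were not. None of these 3 lists had a gene at an unadjusted p under 0.05.

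For several other cell types the marker medians ranged more widely than those of the 84 subunits, which lay between -0.13 and 0.084. Medians of so few genes spread more than a median of 84, and those of the 4 complex II members ran from -0.26 to 0.14. The median ratios in pairs 1 to 4 were -0.19, -0.58, 0.20 and 0.41 for 2 red blood cell genes, 0.31, -0.052, -0.17 and 0.043 for 7 oligodendrocyte genes, -0.34, 0.050, -0.11 and -0.19 for 6 genes of striatal projection neurons and 0.056, 0.15, -0.41 and -0.044 for 5 of cholinergic neurons. For astrocytes (8 genes) they were 0.10, -0.057, 0.084 and -0.049, for microglia (6) -0.040, -0.13, 0.16 and 0.11, for choroid plexus and ependyma (5) -0.12, 0.036, -0.013 and 0.049 and for muscle (6) -0.053, -0.062, -0.053 and -0.013. Pallidal and GABA neuron markers had -0.075, -0.057, 0.063 and -0.064, with 4 of 9 changes below 0 (8 of 9 as deposited), and cortical and thalamic markers had -0.018, -0.050, 0.0094 and -0.12, with 6 of 8 below 0. The part of these differences in the subunits' ratios was not tested. With 4 arrays, their number limits the precision of every value.

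**Figure D5:**
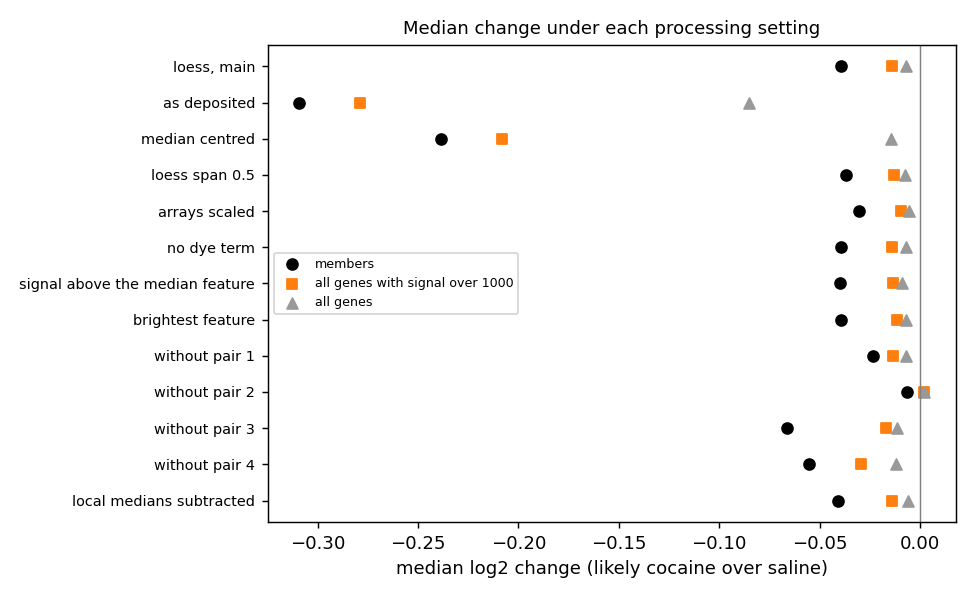
Median log2 change (horizontal axis, likely cocaine over saline) of the 84 members, of genes with a signal over 1000 and of all genes under each processing setting (vertical axis). The members' median runs from -0.31 as deposited to -0.0065 without pair 2, and lies to the left of the other medians in every row.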

How the data were processed

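The authors deposited 1 log2 ratio per feature and array. Agilent Feature Extraction is named in the submitters' processing notes. No version or setting is given in the sources used here. RNA (PicoPure kit, 75 ng) was linearly amplified, per the labels' protocols. On arrays 1 and 3, 2 to the power of the deposited value was a ratio of whole numbers for 100% of features, so the log2 values of these arrays are read as ratios of signals without background subtraction or dye normalization. On arrays 2 and 4, whose values keep fewer digits, this held for 1.91% and 1.89%, and the same reading is assumed there. From these fractions the signal of both channels was recovered for 97.4% of features (steps of 0.5 scanner units, and of 0.1 above 20000, chosen so that both arrays agree, r = 0.996), and the same signal served for arrays 2 and 4. On simulated data (4000 features) made with the same steps, 92.9% of the resolved features lay within 0.25 log2 of the truth. The simulation therefore cannot test the steps themselves. Signals serve only for normalization and to say what is near background.

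Ratios were normalized within each array by loess on this signal (limma 3.58.1 in R 4.3.3, span 0.3, 4 iterations). Features of a symbol were averaged. The treatment and dye terms were estimated by limma's lmFit and eBayes (two-sided tests, Benjamini-Hochberg over 18833 genes), with 2 residual and 4.09 prior degrees of freedom. When this comparison was simulated with 200 of 18833 genes changed, 63% of changes of 0.5 and 100% of changes of 1 log2 were found and 7 unchanged genes were called. The simulated noise was drawn independently for each gene and array. Both simulated sizes exceed the largest change of a member in size (-0.25, Ndufa10), so these rates do not apply to changes as small as the members'.

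Symbols came from the platform annotation, and all 84 members matched their RefSeq symbol. The members and lists were chosen with earlier results of these data known, so no list has a p. In each complex the text names the 3 members with the smallest p, the highest and lowest change, those with 1 sign in all pairs, core subunits, isoforms, those with the strongest dye effects and those whose features differ most, and 2 genes of each related list. Alternatives were ratios as deposited or centred, another loess span, scaled arrays, no dye term, bright or brightest features, and leaving out each pair. Subtracting local medians on the array was chosen after seeing the data.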

Additional observations from a re-analysis of the deposited data

Results flagged for a closer look

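Within a set of 4 pairs, 1 pair stood far from the others for 4 of the 90 sets checked (84 members, the members' median and 5 complex medians), by the gap to its neighbour over the whole range against Dixon's 95% critical value. Chance flags about 1 in 20 such sets. Sdhc, a membrane anchor of complex II, stood at -1.02 in pair 2, with 0.13, -1.02, 0.13 and -0.0072 in pairs 1 to 4. Atp5mpl, a small ATP synthase subunit, stood at -0.60 in pair 1, with -0.60, 0.11, 0.11 and 0.059. Atp5c1, the γ subunit of the ATP synthase, stood at 0.24 in pair 3, with -0.096, -0.13, 0.24 and -0.089. Cox4i2, an isoform near the lowest signals on the arrays, stood at -0.24 in pair 3, with 0.046, 0.053, -0.24 and 0.087. Their changes without that pair were 0.060 for Sdhc, 0.098 for Atp5mpl, -0.10 for Atp5c1 and 0.058 for Cox4i2.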

How the results depend on the processing

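The count of members past an adjusted p of 0.05 was 0 under every alternative run, local medians included. Over all genes that count was 0 with all pairs and 0 to 2 when each pair was left out (1 without pair 2, 2 without pair 4). At an unadjusted p under 0.05, members above 0 numbered 1 (Ndufc2) with a loess span of 0.5, with scaled arrays and with local medians subtracted, and 0 to 3 without a pair; members below 0 numbered 1 (Ndufs3) with median centring and 0 to 13 without a pair. The 13 arose without pair 4, where 12.8% of all genes passed, against 2.58% with 4 pairs. The count below 0 ran from 47 to 62 without a pair. Median changes as deposited were -0.31 for the members and -0.33, -0.32, -0.34, -0.26 and -0.32 for complexes I to V; with median centring they were -0.24 and -0.25, -0.24, -0.27, -0.18 and -0.24. The construction leaves the dye trend with signal in these ratios. Without a pair the median ran over -0.066 to -0.0065 for the members, and over -0.066 to -0.0085, -0.15 to 0.075, -0.11 to -0.012, -0.047 to -0.0034 and -0.092 to 0.00064 for complexes I to V, so complexes II and V have no direction that holds without each pair. Members with a dye effect numbered 82 as deposited, 83 with median centring, 1 with bright features only and 0 to 5 without a pair (0 without pair 1 or 3, 2 without pair 2). The sign of a single member's change turned for 26 of 84 as deposited, 29 with median centring, 4 with the wider loess span, 3 with scaled arrays, 7 with the brightest feature, 2 of 80 with bright features, 2 with local medians subtracted and 14, 23, 10 and 6 without pairs 1 to 4; no member has a called direction. Every fit is paired within the array, and replicate numbers only name the arrays, so no further block by pair could be added. Dim isoforms are limited by signal near background.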

Other observations

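Markers of endothelium and pericytes, cells of the vessel wall, had changes above 0 for 8 of 8 genes, with a median of 0.11, while 53.6% of all genes lay below 0. With the ratios as deposited, 4 of 8 lay below 0 with a median of -0.025, against 80.9% and -0.085 for all genes. Their median ratios were 0.13, 0.17, 0.080 and 0.16 in pairs 1 to 4, above 0 in each. Single genes were less even: 3 of the 8 lay below 0 in each pair, and 0 were above 0 in all 4 pairs. The pericyte gene Rgs5 gave 0.85, 0.18, -0.057 and 0.31 and a change of 0.32 ± 0.14 (SE), and Pdgfrb, the receptor for platelet-derived growth factor on pericytes, gave 0.46, -0.097, 0.29 and -0.091 and a change of 0.14 ± 0.060 (SE). The smallest adjusted p in the table was 0.962, so 0 of the 8 passed, and 0 had an unadjusted p under 0.05. The median of the list without each pair ran over 0.092 to 0.15.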
